A study of Mus musculus with 36 samples.

Results

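The 8 genes described here carry out antigen presentation on MHC class II in the mouse: the class II chains H2-Aa, H2-Ab1 and H2-Eb1, the invariant chain Cd74, the peptide-loading chains H2-DMa and H2-DMb1, the transactivator Ciita and the protease Ctss. They were taken by symbol from a count table of 49585 gene IDs, and all 8 were found and passed the filter that left 20009 genes for testing. RNA came from 36 lung tumours of mice, from which neoplastic cells had been sorted by EGFP. The tumours carried the oncogene EML4-ALK, which fuses the ALK kinase to part of EML4. The fusion was either variant 1 (V1) or variant 3 (V3), and in each variant a guide RNA against Neo (sgNeo, Setd2-proficient controls) or against Setd2 (sgSetd2) had been used. Setd2 encodes the enzyme that trimethylates a lysine of histone H3 in transcribed gene bodies. The labels give 9 tumours for each of the 4 groups. Each group's titles hold 3 codes with 3 tumours each. Strain, age, sex and the means of tumour initiation are not given in the labels, nor what a code stands for.

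MHC class II molecules display peptides from the endocytic pathway to CD4+ T cells. The alpha and beta chains assemble in the endoplasmic reticulum around the invariant chain, which fills the groove and guides the complex to acidic compartments, where proteases trim it and the DM heterodimer exchanges its last fragment for peptide. Dendritic cells, B cells and macrophages are the professional carriers of the pathway, but alveolar type 2 (AT2) cells, the surfactant-producing epithelium of the lung, also make class II in the steady state. The chain genes share a promoter module of W, X and Y boxes. RFX, CREB and NF-Y factors bind this module and recruit CIITA, which does not bind DNA itself.

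The promoters of H2-Eb1, H2-Aa and H2-DMb1 are shown because they hold the recognisable letters of that module. RefSeq promoter entries (build GRCm38.p6) were found for 5 members. Each line gives the 130 bases before the RefSeq start, 5′ to 3′ on the gene's strand. For H2-DMb1 and H2-DMa the RefSeq starts lie inside the genes as placed below, which begin at 34153072 and 34119541. Most of the H2-DMb1 line therefore falls within that gene. Capitals mark the Y box, searched as CTGATTGG, and the core of the X box, searched as GNNACNNAT, both on either strand within 250 bases before the start.
H2-Eb1, chr17:34305737-34305866, plus strand: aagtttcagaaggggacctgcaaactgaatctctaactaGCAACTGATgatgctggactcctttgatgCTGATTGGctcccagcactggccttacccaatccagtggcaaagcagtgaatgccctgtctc
H2-Aa, chr17:34287824-34287953, minus strand: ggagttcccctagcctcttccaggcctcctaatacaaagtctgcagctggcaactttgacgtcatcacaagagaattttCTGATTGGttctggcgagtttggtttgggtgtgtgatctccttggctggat
H2-DMb1, chr17:34153061-34153190, plus strand: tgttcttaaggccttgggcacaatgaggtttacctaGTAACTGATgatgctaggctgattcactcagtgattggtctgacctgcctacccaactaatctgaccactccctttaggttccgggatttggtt
H2-Eb1 held both motifs, the X box core 91 and the Y box 62 bases before the start. H2-Aa held a Y box match 51 bases before the start, and H2-DMb1 an X box core match 94 bases before it. An X box core match also lay 227 bases before the start of 1 of the 2 H2-DMa entries. The Y box letters occur in 3.83% and the X box core letters in 22.0% of 32851 RefSeq promoter windows of the same length. The gamma interferon activated site, searched as TTCNNNGAA and present in 7.02% of windows, was found in no member entry. These are matches of letters and not measurements of binding.

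Total counts ran from 17893071 to 137152480 per tumour and from 91479340 to 212097748 per code. For testing, each code's 3 tumours were added up, giving n = 3 codes per group. In such a sum a more deeply sequenced tumour has more weight. Nothing in the labels says that codes are separate animals, so p-values measure the spread between codes. Values are CPM, counts scaled to library size with TMM factors, and were tested with edgeR's quasi-likelihood test and adjusted by Benjamini-Hochberg over all 20009 genes at 0.05. Setd2 itself ranged from 43.9 to 95.1 CPM in V1 sgNeo and from 27.9 to 46.5 CPM in V1 sgSetd2 tumours. In V3 it ranged from 39.0 to 68.5 CPM in sgNeo and from 28.2 to 81.1 CPM in sgSetd2 tumours. Its log2 fold change was -0.86 in V1 and -0.26 in V3 (edgeR adjusted p = 0.0825 and 0.647). Single sgNeo and sgSetd2 tumours overlapped in Setd2 mRNA in both variants, in V1 between 43.9 and 46.5 CPM.

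**Figure D1:**
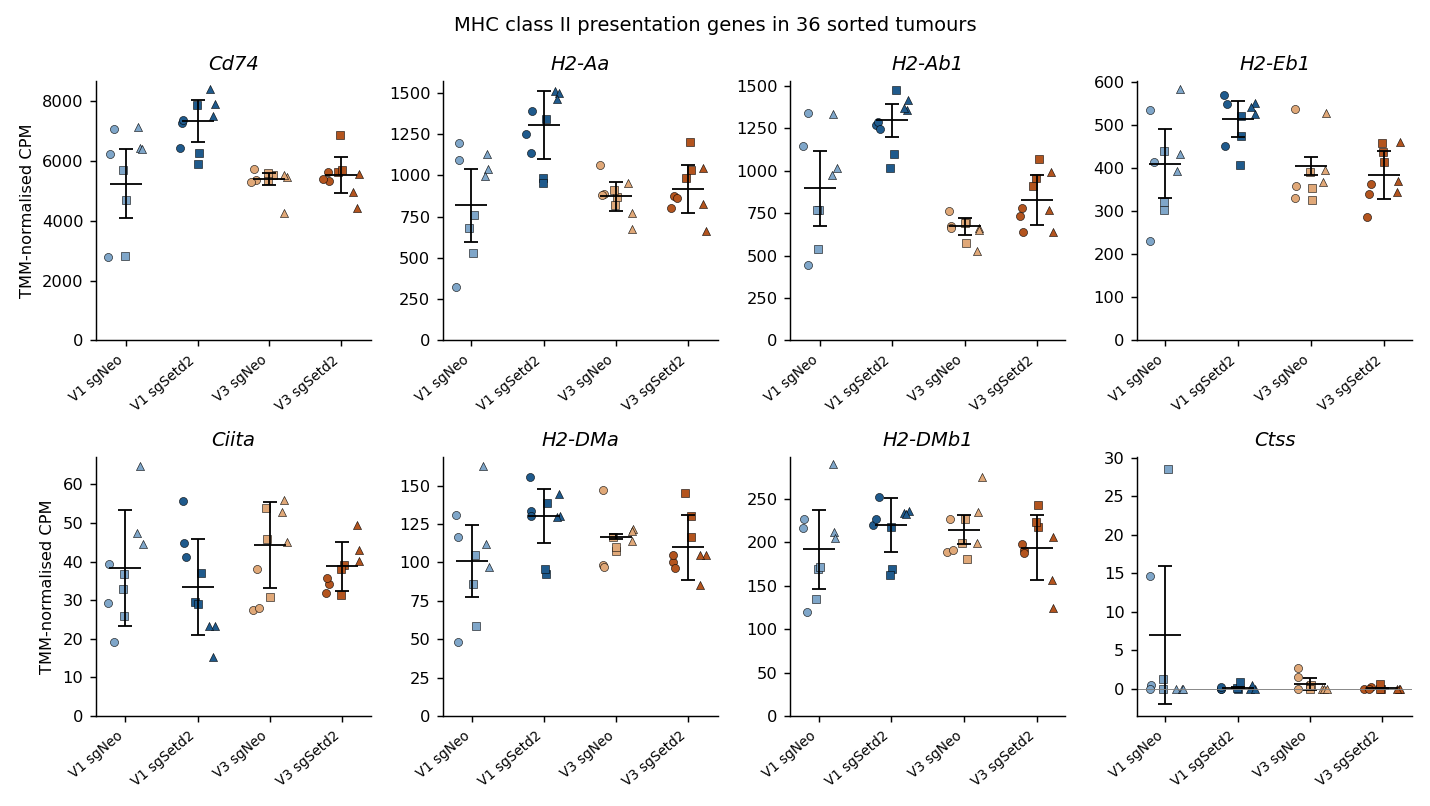
TMM-normalised CPM of the 8 genes (linear axes) in each of 36 tumours by group. Marker shapes separate the 3 codes of a group, the horizontal bar is the mean of the 3 codes and the error bar their SD. For Cd74, H2-Aa and H2-Ab1 the code sums of V1 sgSetd2, which are not drawn, lie above those of V1 sgNeo, while single tumours overlap. Ctss is at or near 0 in most tumours.

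All members but Ctss were present in every tumour. Cd74, which encodes the invariant chain (GRCm38 chromosome 18, 60803848 to 60812652, plus strand), was the highest, at 2798 to 8400 CPM over the 36 tumours. Per kilobase of exon it averaged 3507 CPM and ranked 9th of 19946 genes with a length. The class II beta chain H2-Ab1 (chromosome 17, 34257689 to 34269419, plus strand) averaged 359.6 CPM per kilobase and ranked 78th. Its alpha partner H2-Aa (chromosome 17, 34282744 to 34287823, minus strand) averaged 259.2 CPM per kilobase and ranked 124th, and the second beta chain H2-Eb1 (chromosome 17, 34305867 to 34316674, plus strand) 218.8 CPM per kilobase and 160th. Thus the invariant chain and the classical chains all stood within the top 1% of ranked genes by level per kilobase.

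The peptide-loading chains were lower. H2-DMb1 (chromosome 17, 34153072 to 34160230, plus strand) averaged 121.9 and H2-DMa (chromosome 17, 34119541 to 34139101, plus strand) 32.94 CPM per kilobase. Ciita (chromosome 16, 10480059 to 10528418, plus strand), the transactivator of the pathway, averaged 3.962 CPM per kilobase and ranked 7348th. It was nevertheless counted in all 36 tumours, at 15.26 to 64.66 CPM. Exon lengths merge all annotated isoforms, so the level per kilobase of a gene with many isoforms, such as Ciita, is understated.

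Ctss (chromosome 3, 95526786 to 95556403, plus strand), which encodes cathepsin S, the protease known for the last steps of invariant chain removal in professional presenting cells, had 0 counts in 18 of 36 tumours. Only 5 tumours reached 1 CPM. In V1 sgNeo the lowest, median and highest tumours were at 0, 0 and 28.61 CPM, in V1 sgSetd2 at 0, 0 and 0.9327, in V3 sgNeo at 0, 0 and 2.686, and in V3 sgSetd2 at 0, 0.0169 and 0.5916 CPM. The 2 highest tumours were tumour 1 of CE468 (28.6 CPM) and tumour 2 of CE467 (14.7 CPM), both V1 sgNeo. The same tumours held 196.0 and 182.0 CPM of Chil3, a chitinase-like gene of alveolar macrophages, against a median of 0.00845 CPM over all tumours and at most 12.3 CPM in the other 34. Their summed macrophage markers were 30.4 and 13.8 CPM, and Ptprc, the leukocyte antigen CD45, was at 3.21 and 0 CPM. The part of other cells in their Ctss counts was not tested.

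Other lysosomal proteases were abundant in the same cells. Ctsh, encoding cathepsin H, averaged 734 CPM per kilobase, Ctsc, encoding the dipeptidyl peptidase cathepsin C, 545, Ctsd, the aspartic protease cathepsin D, 335, and Ctsb, cathepsin B, 161. Ctsl, encoding cathepsin L, which takes the role of cathepsin S in cortical thymic epithelium of the mouse, was present in every tumour at 89.1 to 227 CPM, and Lgmn, the asparaginyl endopeptidase that starts invariant chain cleavage, at 40.4 to 163 CPM. The thiol reductase Ifi30 stood at 31.4 to 96.0 CPM and Sppl2a, which clears the last membrane stub of the invariant chain, at 22.1 to 94.9 CPM.

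**Figure D2:**
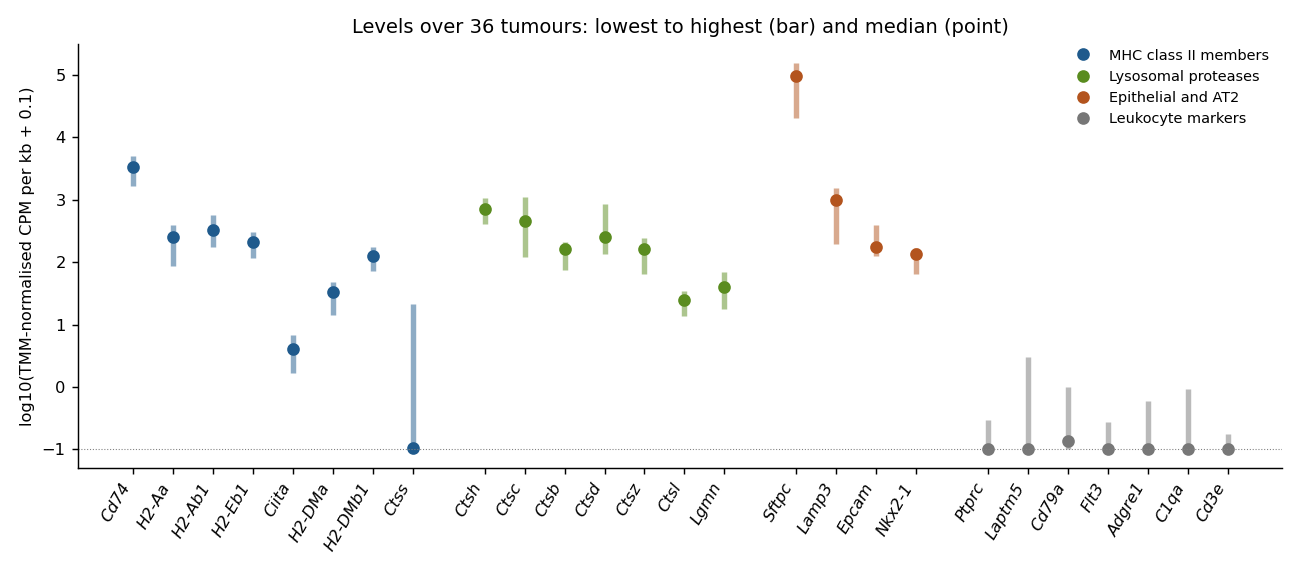
Levels over the 36 tumours on a log10 axis, as TMM-normalised CPM per kilobase of exon plus 0.1, with bars from the lowest to the highest tumour and points at the median. The dotted line marks 0 CPM. The class II genes other than Ciita and Ctss lie in the range of the epithelial and protease genes shown, and Ciita lies below them. The leukocyte markers drawn are a selection from the marker lists and have medians at or near 0. Cd68 and Cd79b, which are not drawn, have medians of 6.14 and 5.44 CPM per kilobase, above the 3.94 of Ciita.

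The sorted cells carried an AT2 and epithelial profile. All 12 AT2 markers had a median of at least 1 CPM in every group, and their summed level was 32300 to 233000 CPM per tumour. The 5 epithelial markers summed to 2540 to 5640 CPM. By contrast, all 5 leukocyte markers had a median of 0, and their sum was 0 to 30.8 CPM (median 0.461), with ranges of 0 to 19.1 CPM in V1 sgNeo, 0.028 to 30.8 in V1 sgSetd2, 0 to 1.91 in V3 sgNeo and 0.0763 to 3.71 in V3 sgSetd2. The highest of these, 30.8 CPM in a V1 sgSetd2 tumour, was nearly all Cd53, which reached 30.7 CPM. Ptprc did not exceed 3.54 CPM in any tumour.

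Most markers of the professional class II cells were at or near 0, with Cd68, Zbtb46 and Cd79b as exceptions. Of 12 macrophage markers, 8 had a median of 0, among them Adgre1, Marco and the C1q genes, and the summed list (4.19 to 30.4 CPM) was mostly Cd68 (median 7.72 CPM). Of 9 dendritic cell markers, 7 had a median of 0, among them Flt3, Itgax, Xcr1 and Clec9a. The sum of 0.959 to 11.2 CPM was mostly Zbtb46 (median 2.66 CPM), which was counted in every tumour. Of 8 B cell markers, 6 had a median of 0. The sum of 1.53 to 28.5 CPM was mostly Cd79b (median 7.78 CPM). T and NK cell markers summed to 0 to 1.25 CPM. Among all marker lists 3 genes passed in any of the 7 comparisons. Averaged over variants, 1 of 5 dendritic cell and 1 of 12 AT2 markers tested passed, where 7.35% of all genes did. Averaged over guides, 1 of 12 AT2 markers passed, where 0.3% of all genes did. Within V3, 1 of 12 AT2 markers was lower with sgSetd2, where 1.49% of all genes passed. Among sgSetd2 tumours, 1 of 12 was lower in V3, where 0.13% of all genes passed. Batf3, a dendritic cell factor, was higher with sgSetd2 averaged over variants (log2 fold change 2.69, edgeR adjusted p = 0.0319), at 0.237 to 2.384 CPM by group. The AT2 gene Napsa was lower with sgSetd2 (-1.29, edgeR adjusted p = 0.0022), and the AT2 gene Hc was lower in V3 (-1.69, edgeR adjusted p = 0.00429). Their part in the class II values was not tested. In these bulk samples, fewer cells of a type and less RNA per cell cannot be told apart.

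The remaining class II chains were low or absent. H2-DMb2, a near-identical copy of H2-DMb1 with which reads may be shared, had a median of 29.5 CPM and the widest spread, from 2.31 to 103 CPM. All 3 tumours of the V3 sgSetd2 code CE450 lay at 2.31 to 3.2 CPM, and its H2-DMb2 to H2-DMb1 ratio was 0.0151, against 0.0836 to 0.355 in the other codes. H2-DMb1 itself was not low in that code (188.3 to 198.1 CPM). H2-Oa and H2-Ob, the chains of the DO heterodimer that restrains DM in B cells, had medians of 0 CPM. H2-Eb2 had a median of 1.81 CPM. H2-Ea-ps, the gene of the alpha chain that pairs with H2-Eb1, had 0 counts in 32 of 36 tumours and at most 0.259 CPM. Mice of the H2-b haplotype lack this alpha chain because of a promoter deletion, but the strain of these mice is not given in the labels.

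The first comparison was sgSetd2 against sgNeo in V1 tumours. Cd74, H2-Aa and H2-Ab1 were higher in each V1 sgSetd2 code than in any V1 sgNeo code, but no member passed the test over all genes. Cd74 stood at 4620, 4530 and 6581 CPM in the sgNeo codes CE467, CE468 and CE472 and at 7193, 6736 and 8115 CPM in the sgSetd2 codes CE475, CE479 and CE483. Its group means were 5244 ± 1159 and 7348 ± 702.6 CPM (SD, n = 3 codes), a log2 fold change of 0.49 (SE 0.17, edgeR adjusted p = 0.190). The code sums do not overlap, and CE472 lay close below the lowest sgSetd2 code, CE479. Their single tumours did overlap, at 6406 to 7136 CPM in CE472 and 5918 to 7866 CPM in CE479.

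H2-Aa had 717.1, 667.2 and 1072 CPM in the sgNeo codes and 1298, 1104 and 1517 CPM in the sgSetd2 codes, a log2 difference of 0.67 (SE 0.20, edgeR adjusted p = 0.128). H2-Ab1 had 825.7, 720.7 and 1144 CPM in the sgNeo and 1280, 1210 and 1403 CPM in the sgSetd2 codes, with a log2 fold change of 0.53 (SE 0.18, edgeR adjusted p = 0.176). In both genes CE472 was the highest sgNeo code and stood just under the sgSetd2 codes.

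For H2-Eb1 the means were 410.6 ± 79.34 and 514.3 ± 40.92 CPM (log2 fold change 0.32, SE 0.16, edgeR adjusted p = 0.342). H2-DMa had means of 101.2 ± 23.39 and 130.2 ± 17.42 CPM and H2-DMb1 191.9 ± 45.95 and 220.2 ± 30.82 CPM. In these 3 genes the codes overlapped. Ciita had a lower mean in sgSetd2, 33.34 ± 12.43 against 38.33 ± 14.95 CPM (log2 fold change -0.20, SE 0.32, edgeR adjusted p = 0.835), and its codes also overlapped. Ctss had 2484 counts in V1 sgNeo, 2080 and 349 of them in the pair of Chil3-high tumours named above, and 59 in V1 sgSetd2.

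Counted together, 0 of 8 members passed in V1 with edgeR, where 1.42% of all genes did. At an unadjusted p under 0.05, 3 members were higher (Cd74, H2-Aa and H2-Ab1) and 1 lower (Ctss), while 15.9% of all genes passed that limit in either direction. The codes did not overlap in 3 of 8 members, against 24.0% of all genes. The members' median log2 fold change was 0.34, and that of all genes -0.01. DESeq2 on the same sums called 3 members, Cd74, H2-Aa and H2-Ab1 (adjusted p = 0.029, 0.0138 and 0.0393). It called 1500 genes in all, the most of any alternative fit, against 284 with edgeR on the sums. With edgeR on the 36 tumours taken as independent, H2-Aa was the only member called (adjusted p = 0.0415).

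The 9 V1 sgNeo tumours ran from 2798 to 7136 CPM of Cd74, against 5918 to 8400 CPM in V1 sgSetd2. Tumour 1 of CE467 held 2798 CPM and tumour 4 of CE468 2822 CPM of Cd74, and the other 7 held 4711 to 7136 CPM. These 2 tumours also had the lowest summed AT2 markers of their group (32260 and 72700 CPM). Tumour 2 of CE472 was the next lowest of that group in AT2 markers, at 90710 CPM. Without it and those 2 tumours, the V1 log2 fold changes were 0.26 for Cd74, 0.43 for H2-Aa and 0.35 for H2-Ab1 (edgeR adjusted p = 0.544, 0.373 and 0.439). Only V1 sgNeo tumours were left out there, and 2 of them were the lowest of that group in Cd74, H2-Aa and H2-Ab1. That choice by itself favours smaller differences, so the fit cannot show what part AT2 content has in them. Tumour 2 of CE479 in V1 sgSetd2 was kept, although its AT2 marker sum of 81640 CPM was below that of the CE472 tumour. Without the 5 tumours with at least 1 CPM of Ptprc the V1 log2 fold changes were 0.39, 0.62 and 0.51 (edgeR adjusted p = 0.419, 0.266 and 0.319).

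**Figure D3:**
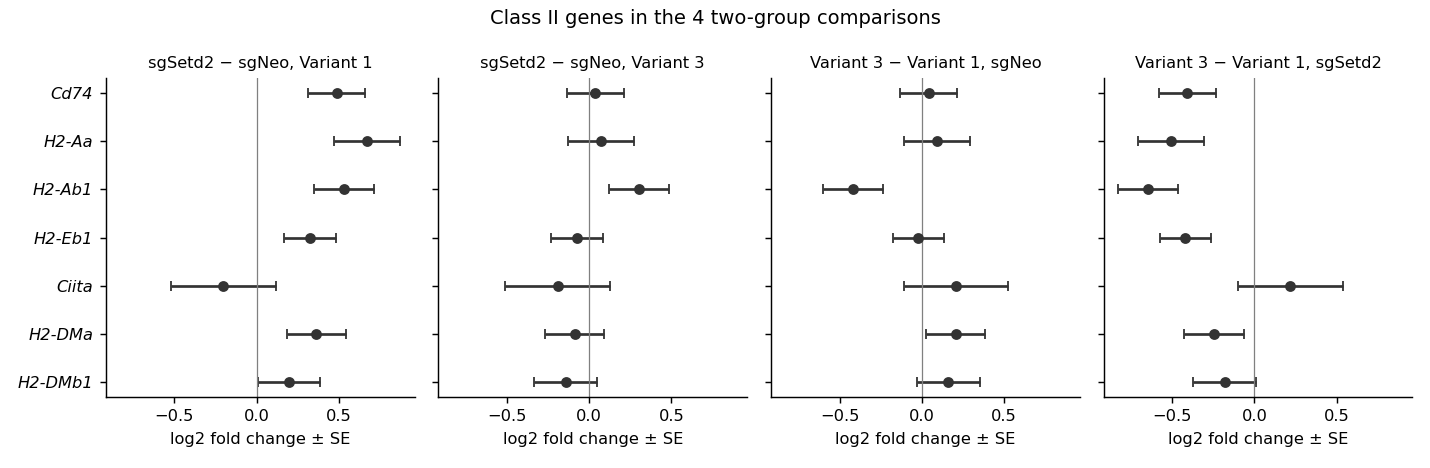
Log2 fold change with its SE (edgeR, 12 code sums) for 7 of the 8 genes in the 4 comparisons of 2 groups. Ctss is left out because its fold changes rest on few tumours and lie outside the axis. In V1 Cd74, H2-Aa and H2-Ab1 lie at 0.49 to 0.67, and no gene shown passed the adjusted test in any panel.

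In V3 tumours no member passed either, and the codes of all members but H2-Ab1 overlapped between the guides. Cd74 had 5504, 5520 and 5162 CPM in the sgNeo codes CE428, CE429 and CE433 and 5541, 6141 and 4915 CPM in the sgSetd2 codes CE450, CE454 and CE456. The log2 fold change was 0.04 (SE 0.17, edgeR adjusted p = 0.956), and 2 SE to either side reached from -0.31 to 0.38. H2-Aa differed by 0.07 (SE 0.20), H2-Eb1 by -0.07 (SE 0.16), H2-DMa by -0.09 (SE 0.18), H2-DMb1 by -0.14 (SE 0.19) and Ciita by -0.19 (SE 0.32) on the log2 scale. Ctss had 242 counts in V3 sgNeo and 43 in V3 sgSetd2, with means of 0.614 ± 0.749 and 0.0791 ± 0.0716 CPM and a fitted log2 fold change of -2.93 (SE 1.97, edgeR adjusted p = 0.536).

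H2-Ab1 differed from the others in the order of its V3 codes: 707.0, 690.0 and 617.0 CPM in sgNeo and 720.5, 995.6 and 767.6 CPM in sgSetd2 do not overlap. The log2 fold change was 0.30 (SE 0.18, edgeR adjusted p = 0.480), and the gap between the nearest codes was small. With edgeR, 0 of 8 members passed in V3, where 1.49% of all genes did, and 0 of 8 had an unadjusted p under 0.05, against 15.1% of all genes. The codes did not overlap in 1 of 8 members and in 19.0% of all genes. DESeq2 on the same sums called 0 members, and no alternative fit called more than 1361 genes there.

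Averaged over both variants, sgSetd2 minus sgNeo was 0.42 on the log2 scale for H2-Ab1 (SE 0.13, edgeR adjusted p = 0.0752), 0.37 for H2-Aa (SE 0.14, edgeR adjusted p = 0.138) and 0.26 for Cd74 (SE 0.12, edgeR adjusted p = 0.229). H2-Eb1 differed by 0.12 (SE 0.11), H2-DMa by 0.14 (SE 0.13), H2-DMb1 by 0.03 (SE 0.13) and Ciita by -0.20 (SE 0.22). With edgeR 0 of 8 members passed, against 7.35% of all genes. At an unadjusted p under 0.05, H2-Aa and H2-Ab1 were higher and Ctss lower, where 22.9% of all genes passed. DESeq2 called 2 members, H2-Ab1 and Ctss (adjusted p = 0.0119 and 0.0401), and 2908 genes in all, against 1471 with edgeR. Over 61 alternative fits the edgeR, DESeq2 or limma adjusted p of H2-Ab1 passed in 5 and its log2 fold change kept to 0.31 to 0.53.

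A separate exact two-sided permutation of codes within variants was made for each of the 8 members, on mean log2(CPM + 1) per code and with no adjustment over the members. H2-Ab1 gave a difference of 0.44 with exact permutation p = 0.005, the smallest value the design allows. It was higher in all 6 sgSetd2 codes than in the sgNeo codes of the same variant. The share of all genes that reach this p was not computed. Codes of the 2 guides did not overlap, in either direction, in 24.0% of all genes in V1 and 19.0% in V3. The exact permutation p was 0.065 for H2-Aa (difference 0.36 on the log2 scale), 0.115 for Cd74 (0.25), 0.135 for Ctss (-0.66), 0.175 for H2-Eb1 (0.17), 0.285 for H2-DMa (0.16), 0.56 for Ciita (-0.15) and 0.91 for H2-DMb1 (0.02).

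The variants were compared next. Among sgNeo tumours, Cd74 (5244 ± 1159 CPM in V1 and 5396 ± 202.2 in V3), H2-Aa (818.8 ± 220.9 and 873.5 ± 86.88) and H2-Eb1 (410.6 ± 79.34 and 404.6 ± 20.67) had overlapping codes and means that differed by less than the V1 SD. H2-Ab1 was lower in every V3 code, at 671.3 ± 47.82 against 896.8 ± 220.5 CPM (log2 fold change -0.42, SE 0.18, edgeR adjusted p = 0.459). By Ddx3y, a Y-linked gene, 0 of 3 V1 sgNeo codes and 2 of 3 V3 sgNeo codes were male, and 1 of 3 in each sgSetd2 group. With sex as a covariate the H2-Ab1 value was -0.32 (edgeR adjusted p = 0.755). With edgeR 0 of 8 members passed and 0.005% of all genes did. At an unadjusted p under 0.05 H2-Ab1 alone was counted, against 10.4% of all genes. The codes did not overlap in 1 of 8 members and in 15.0% of all genes. DESeq2 called 0 members and 392 genes in all.

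Among sgSetd2 tumours the codes of Cd74, H2-Aa, H2-Ab1 and H2-Eb1 were all lower in V3 than in V1 and did not overlap, 4 of 8 members against 16.7% of all genes. Cd74 had means of 7348 ± 702.6 CPM in V1 and 5532 ± 612.9 in V3 (log2 fold change -0.41, SE 0.17, edgeR adjusted p = 0.468). H2-Aa had 1306 ± 206.3 and 918.5 ± 143.1 CPM (-0.51, SE 0.20, edgeR adjusted p = 0.432). H2-Ab1 had 1297 ± 97.78 and 827.9 ± 147.2 CPM (-0.65, SE 0.18, edgeR adjusted p = 0.257). H2-Eb1 had 514.3 ± 40.92 and 384.2 ± 55.52 CPM (-0.42, SE 0.16, edgeR adjusted p = 0.405).

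In that comparison 0 of 8 members passed with edgeR and 0.13% of all genes did. The same 4 members had an unadjusted p under 0.05, against 9.7% of all genes, and the members' median log2 fold change was -0.41 beside 0.03 for all genes. DESeq2 on the sums called H2-Ab1 alone of the members (adjusted p = 0.0198), and 485 genes in all, against 26 with edgeR. H2-DMa differed by -0.25 (SE 0.18), H2-DMb1 by -0.18 (SE 0.19) and Ciita by 0.22 (SE 0.32) on the log2 scale. Of 12 AT2 markers tested, 1 passed as lower in V3, beside that 0.13% of all genes. The AT2 marker sum was 81600 to 199000 CPM in V1 sgSetd2 and 95400 to 148000 CPM in V3 sgSetd2 tumours. The part of AT2 content in these values was not tested.

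Averaged over the guides, H2-Ab1 was lower in V3 by 0.53 on the log2 scale (log2 fold change -0.53, SE 0.13, edgeR adjusted p = 0.112), and DESeq2 called it (adjusted p = 0.00242). In this average edgeR called 60 genes in all, and no alternative fit called more than 1080. The other members differed by -0.22 to 0.21, apart from Ctss at -2.36 (SE 1.36). With edgeR 0 of 8 members passed, against 0.3% of all genes, and H2-Ab1 alone had an unadjusted p under 0.05, against 15.1% of all genes.

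Whether the guide difference itself depended on the variant was tested as an interaction. Its log2 value was -0.60 for H2-Aa (SE 0.28, edgeR adjusted p = 0.824), -0.45 for Cd74 (SE 0.24), -0.45 for H2-DMa (SE 0.25), -0.40 for H2-Eb1 (SE 0.22), -0.34 for H2-DMb1 (SE 0.27), -0.23 for H2-Ab1 (SE 0.26) and 0.01 for Ciita (SE 0.45). With edgeR 0 of 8 members passed and 0.0% of all genes did. At an unadjusted p under 0.05, 0 members and 6.0% of all genes were counted, and DESeq2 called 0 members and 114 genes in all. A difference between the variants in the response of these genes was not detectable here.

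The ratio of H2-Ab1 to H2-Aa counts within a tumour separated the variants in sgNeo. This ratio was chosen after the values were seen, so it is given as a description with no test. It was 1.09 ± 0.07 in V1 sgNeo, 1.01 ± 0.08 in V1 sgSetd2, 0.754 ± 0.015 in V3 sgNeo and 0.900 ± 0.052 in V3 sgSetd2 (mean ± SD of 3 codes). The 9 V3 sgNeo tumours ran from 0.692 to 0.844 and the 9 V1 sgNeo tumours from 0.975 to 1.37, with no overlap. The sgSetd2 tumours of V3 (0.791 to 0.967) and V1 (0.897 to 1.12) overlapped. H2-Aa and H2-Ab1 differ in sequence between mouse strains, and how reads of other alleles were counted was not tested.

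**Figure D4:**
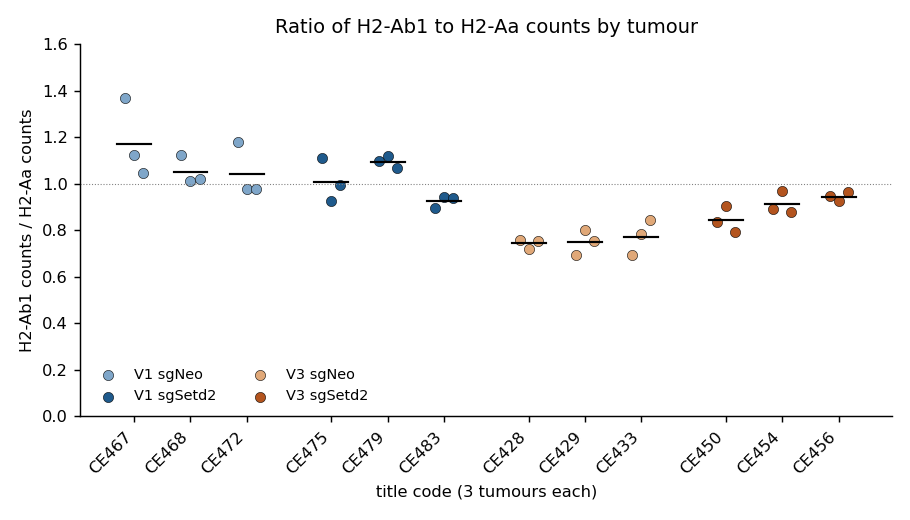
Ratio of H2-Ab1 to H2-Aa counts (linear axis) in each tumour, with 3 tumours per code and a bar at their geometric mean. The dotted line marks a ratio of 1. The V3 sgNeo tumours lie at 0.692 to 0.844, below all 9 V1 sgNeo tumours.

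Levels of the other class II genes tracked Cd74 from code to code, while no such relation was detected for Ciita. Over the 12 codes, Cd74 was related to H2-Aa with Pearson r = 0.977 (permutation p = 1e-05, the smallest 100000 permutations can give, adjusted over 13 relations 0.00013) and Spearman rho = 0.951 (permutation p = 2e-05, adjusted 0.00026). Without the 2 codes farthest from the median of Cd74, r was 0.95, and within the 6 sgNeo and the 6 sgSetd2 codes it was 0.97 and 0.975. Cd74 was likewise related to H2-Ab1 (r = 0.857, rho = 0.734), H2-Eb1 (0.844, 0.811), H2-DMa (0.824, 0.846) and H2-DMb1 (0.678, 0.664), with permutation p adjusted over the 13 relations of 0.00234 and 0.0209, 0.0029 and 0.00932, 0.00305 and 0.0063, and 0.0425 and 0.0478. Without the 2 farthest codes these r were 0.83, 0.761, 0.685 and 0.479. Within sgNeo codes they were 0.603, 0.739, 0.815 and 0.773, and within sgSetd2 codes 0.945, 0.878, 0.79 and 0.754. The permutations moved all 12 codes freely, so differences between groups also enter these relations. Part of this likeness can come from the scaling that the genes of a library share.

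Ciita against Cd74 gave r = -0.17 (permutation p = 0.601, adjusted 0.654) and rho = 0.0839 (permutation p = 0.802, adjusted 0.869). Within sgNeo codes r was 0.568, within sgSetd2 codes -0.592, and without the 2 farthest codes 0.208. Code CE483 had the highest Cd74 (8115 CPM) and the lowest Ciita (21.6 CPM) of the 12. Against H2-Aa, H2-Ab1, H2-Eb1, H2-DMa and H2-DMb1, Ciita had r of -0.215, -0.278, -0.0509, 0.166 and 0.19, with unadjusted permutation p of at least 0.382. Ctss gave r = -0.579 with Cd74 (permutation p = 0.0491, adjusted 0.106) and rho = -0.245 (permutation p = 0.439, adjusted 0.634). Without the 2 farthest codes this r was -0.336, within sgNeo codes -0.754 and within sgSetd2 codes 0.53. With Ciita, Ctss gave r = -0.451 (permutation p = 0.145, adjusted 0.27) and rho = -0.753 (permutation p = 0.00616, adjusted 0.02). Ciita was also the member whose codes of a group differed most relative to the tumours of a code: the SD of log2 values was 0.42 between codes of a group and 0.28 within codes. For Cd74 it was 0.19 between and 0.29 within, and for H2-Aa 0.24 and 0.35.

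**Figure D5:**
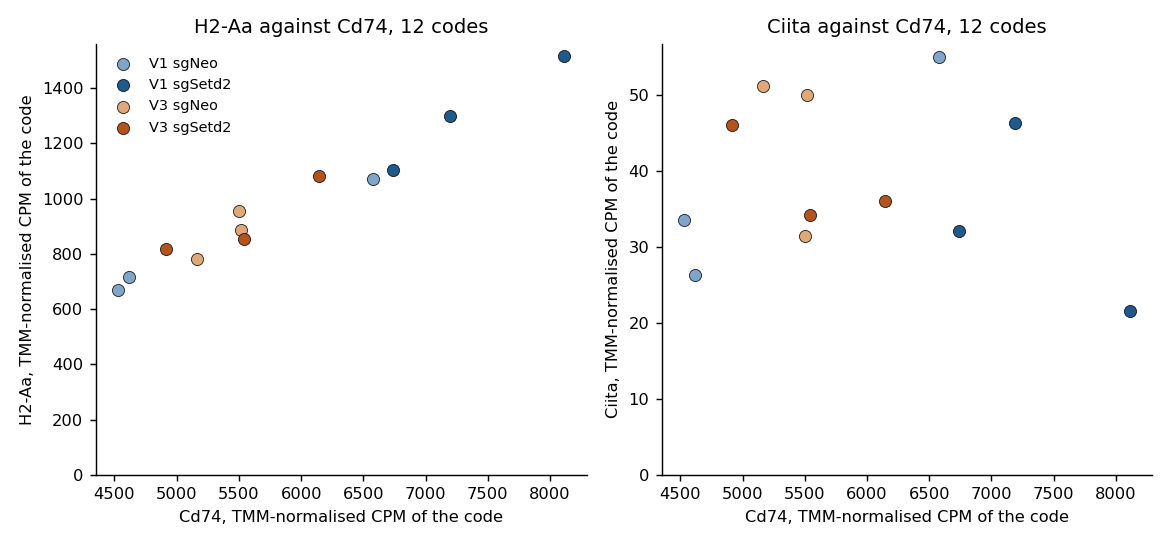
H2-Aa (left) and Ciita (right) against Cd74 in the 12 codes, each as the TMM-normalised CPM of the code sum. The x axes begin near the lowest code. H2-Aa lies along a line with Cd74 (r = 0.977 on log2 values), and Ciita scatters (r = -0.17).

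The members were also set against 4 marker lists over the 12 codes, 32 relations in all. The AT2 list and Cd74 gave r = 0.789 (permutation p = 0.00248, adjusted 0.0794) and rho = 0.888 (permutation p = 0.00029, adjusted 0.00928), and r = 0.764 without the 2 farthest codes. Within sgNeo and sgSetd2 codes r was 0.784 and 0.944. The macrophage list and Cd74 gave r = -0.719 (permutation p = 0.00859, adjusted 0.0916) and rho = -0.636 (permutation p = 0.0298, adjusted 0.136). No Pearson relation of the 32 passed after adjustment, and the AT2 list with Cd74 passed by Spearman's rho.

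The genes most like each member over the 36 tumours were found by Pearson's r of log2(CPM + 1) among 9881 genes of at least 5 CPM, and are given as a description, since tumours share codes, depth and scaling. Nearest to Cd74 were Sftpa1, a surfactant protein gene (r = 0.888), Scamp1, Mob3b, Stard3nl and Oxr1 (0.864 to 0.854). H2-Aa had Slc22a15, Acaa2, Stard3nl, Sftpa1 and Pik3ca (0.812 to 0.769). H2-Ab1 had Itih4, Fhdc1, Krt23, Anpep and Fchsd2 (0.805 to 0.767). H2-Eb1 had H2-T23, a nonclassical class I gene (0.796), Fchsd2, H2-DMb2, Cdip1 and Cfap20 (0.781 to 0.673). H2-DMa had Pxmp4, Cpq, Cat, Dock4 and Acaa2 (0.795 to 0.712), and H2-DMb1 Dazap2, Sgms1, Cpq, Cdc42ep4 and Pxmp4 (0.781 to 0.744). Ciita had lower values throughout, with Sytl5, Btbd2, Rbpjl, Gstm1 and Ldb1 at 0.657 to 0.618. Ctss had Chil3 (0.88), then Cep44, Orc4, Dnajc24 and Dusp11 (0.625 to 0.559).

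Other genes of the pathway were read in the same fit. None of the 7 class II promoter factors passed in any of the 7 comparisons, where 0.0% to 7.35% of all genes passed. In lists this short, 0 genes passing says little at those shares. Averaged over variants, sgSetd2 minus sgNeo was -0.43 for Nfya (SE 0.21, edgeR adjusted p = 0.262), a subunit of NF-Y, and -0.18 for Rfx5 (SE 0.14, edgeR adjusted p = 0.484), the RFX subunit that contacts CIITA. Of the 5 other class II chains 4 were tested and 0 passed, beside the same shares of all genes. H2-DMb2 differed by -2.03 between V3 and V1 sgSetd2 tumours (SE 0.60, edgeR adjusted p = 0.273), a value that includes the low code CE450.

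Of 12 lysosomal proteases and their inhibitors, 2 rose with sgSetd2 in the average over variants and 0 fell, where 7.35% of all genes passed, with a list median of 0.10 against 0.01 for all genes. Ctsc rose from 1985 ± 259.2 to 4928 ± 1064 CPM in V1 (log2 fold change 1.31, SE 0.25, edgeR adjusted p = 0.0328) and passed in the average (1.11, SE 0.18, edgeR adjusted p = 0.00471). Ctsz, encoding the carboxypeptidase cathepsin Z, rose from 190.2 ± 22.63 to 296.9 ± 22.36 CPM in V3 (0.64, SE 0.14, edgeR adjusted p = 0.0472) and in the average (0.63, edgeR adjusted p = 0.0038). Ctsd was higher in V3 than in V1, averaged over guides (1.16, SE 0.18, edgeR adjusted p = 0.0259).

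Of 6 genes of class II turnover and Cd74 partners, 5 were tested and 1 rose in V1 and in the average, where 1.42% and 7.35% of all genes passed. Cd44, the coreceptor of surface CD74 for the cytokine MIF, stood at 306.4 ± 34.16 CPM in V1 sgNeo and 480.5 ± 28.06 CPM in V1 sgSetd2 (0.65, SE 0.14, edgeR adjusted p = 0.0491; average 0.60, edgeR adjusted p = 0.00542). March1, the ubiquitin ligase that removes class II from the surface of dendritic and B cells, had 0 counts in 24 of 36 tumours, while its relative March8 stood at 28.6 to 146 CPM.

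Of 10 interferon gamma pathway genes, 1 rose in V1, 0 passed in V3 and 2 rose in the average, the receptor chains Ifngr1 and Ifngr2, beside 1.42%, 1.49% and 7.35% of all genes called. Ifngr1 stood at 71.38 ± 7.258 and 127.4 ± 9.148 CPM in V1 (0.84, SE 0.16, edgeR adjusted p = 0.0314) and gave 0.74 in the average (edgeR adjusted p = 0.00359). Ifngr2 gave 0.34 in the average (SE 0.09, edgeR adjusted p = 0.0473). Irf8, a transcription factor of the pathway, gave -1.97 (SE 0.64, edgeR adjusted p = 0.0885) at a median of 0.311 CPM.

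The MHC class I list, which serves CD8+ T cells, had 3 of 11 genes up in V1, 2 in V3 and 6 in the average, and 0 down in each, beside 1.42%, 1.49% and 7.35% of all genes called. The heavy chain H2-K1 rose from 858.2 ± 128.7 to 1909 ± 128.6 CPM in V1 (1.15, SE 0.20, edgeR adjusted p = 0.0245) and from 1035 ± 276.2 to 2123 ± 256.9 CPM in V3 (1.04, SE 0.20, edgeR adjusted p = 0.0296). H2-D1 gave 1.06 (SE 0.12), B2m 1.38 (SE 0.19), Tap1 0.90 (SE 0.20), Psmb9 0.83 (SE 0.21) and Psmb8 0.63 (SE 0.13) in the average, with edgeR adjusted p of 0.000954, 0.00199, 0.0228, 0.037 and 0.0163. The list medians in the average were 0.83 for class I and 0.13 for the 8 class II members, beside 0.01 for all genes, and the difference between the lists was not tested. Of 6 T cell costimulators and checkpoint ligands 4 were tested and 0 passed, where at most 7.35% of all genes did in any comparison. Cd80, Cd86 and Cd40, the costimulators of professional presenting cells, had 0 counts in 28, 33 and 32 of 36 tumours.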

How the data were processed

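For 36 tumours, raw counts per gene were deposited in 1 table by the authors, per the file headers. Cells were sorted, RNA isolated with a PicoPure kit and libraries made with a SMART-Seq mRNA kit, per the labels' protocols. Per the submitters' processing notes, STAR 2.5.3a, R 4.2 and DESeq2 1.38.3 were among the tools. How reads were counted, whether strand was used, and which build and annotation served is not given in the sources used here. Of 49585 IDs, 49326 matched GENCODE mouse release M21 (GRCm38) with version digits left aside. Symbols, lengths and coordinates come from it. H2-Ea was matched as H2-Ea-ps. The H2 genes are polymorphic and some are near-identical, so their counts may share or lose reads.

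Counts were summed per title code and the 12 sums fitted together with edgeR 4.0.16 (filterByExpr, TMM, robust glmQLFit, glmQLFTest; R 4.3.3), giving 7 contrasts. SE was taken from F, as |log2 fold change| over its square root. The fit was tested on simulated data. Correlations used 100000 permutations on mean log2(CPM + 1) per code. DESeq2 1.42.0 and limma 3.58.1 served as alternatives. All members were named, with list genes that passed, up to 2 others per list by smallest p, and 5 most similar genes per member. Other genes (Chil3, Setd2, and the list members given only by level) were named outside that rule after their values were seen. Members, lists and tests were chosen with earlier results of these data known. No batch or date appears in the labels, so batch effects were not examined.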

Additional observations from a re-analysis of the deposited data

Results flagged for a closer look

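Of 32 sets of 9 tumours (8 genes in 4 groups), 3 held a tumour far from the others of its group by Dixon's ratio of gap to range. Chance gives about 1 in 20 for independent, normally distributed values, but the tumours of a group share codes. In V3 sgNeo, tumour 2 of CE433 had 4250 CPM of Cd74, below the 5300 to 5740 CPM of the other 8 (ratio 0.708). In V3 sgNeo, tumour 2 of CE428 had 147 CPM of H2-DMa, above the others' 96.9 to 122 CPM (ratio 0.503). In V3 sgSetd2, tumour 5 of CE454 had 0.592 CPM of Ctss, above the others' 0 to 0.203 CPM (ratio 0.656). Of those 9 tumours 7 had at most 3 Ctss counts, and so near 0 the ratio says little.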

How the results depend on the processing

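Over 61 alternative fits (other scalings, filters, tools, covariates and 48 that leave out 1 code or tumour), 0 members passed in V3, between the variants in sgNeo and in the interaction. Elsewhere the count of members called rose from 0 in some fits. In V1 it was 3 with DESeq2 and 1 with edgeR on the 36 tumours. In the average over variants it was 1 with the stricter filter, 2 with DESeq2, 3 with edgeR on the tumours and 1 with limma voom with codes as random blocks, and leaving out 1 code or tumour gave 0 to 3, the 3 being H2-Aa, H2-Ab1 and Ctss without CE472. Between the variants it was 1 (H2-Ab1) in sgSetd2 and 1 (H2-Ab1) averaged over guides, each with DESeq2, edgeR on the tumours and limma voom. The cause was not tested, except that edgeR on the tumours treats the tumours of a code as independent. Over the 36 tumours, 7 of the Pearson relations with marker lists passed, against 0 over codes. No called value reversed.

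All-gene counts moved more: from 284 in V1 to 1500 with DESeq2 and 11 without tumours of at least 1 CPM of Ptprc, from 299 in V3 to 1361 with edgeR on the tumours and 163 without those of at least 1 CPM of Ptprc, and from 1471 in the average to 2908 with DESeq2 and 797 without those tumours. Leaving out 1 code or tumour gave 16 to 495 in V1 (16 without CE483), 78 to 321 in V3 (78 without CE433) and 728 to 1681 in the average (728 without CE475). Between the variants DESeq2 moved the count from 1 to 392 in sgNeo, from 26 to 485 in sgSetd2 and from 0 to 114 for the interaction, and edgeR on the tumours moved it from 60 to 1080 averaged over guides. With macrophage markers as covariate the 26 fell to 2, and with sex as covariate the 60 fell to 16 and the 1 to 0. Leaving out 1 code or tumour there gave 0 to 5, 1 to 50, 0 to 1 and 18 to 124. Leaving out tumours by Ptprc, or V1 sgNeo tumours by low AT2 markers, was chosen after seeing the data. No paired analysis was possible because tumour numbers in the titles name tumours within a code and pair nothing across groups. Depth limits Ctss, which had 0 counts in 18 tumours.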
